A study of Homo sapiens with 9 samples.

Results

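The GIMAP genes encode GTPases of immunity-associated proteins, a family of GTP-binding proteins made mainly by lymphocytes. The 7 human GIMAP genes measured here, GIMAP1, GIMAP2, GIMAP4, GIMAP5, GIMAP6, GIMAP7 and GIMAP8, were followed in Jurkat cells, a line grown from a human T lymphocyte leukaemia. Their probe sets were taken by the gene symbol that the array's annotation gives, whatever their values, which gave 13 probe sets of the 54675 on the Affymetrix HG-U133 Plus 2.0 array, for 7 of the 19775 genes with a symbol of their own. GIMAP1 had 5 of them, GIMAP6 and GIMAP8 had 2 each, and the other genes had 1 each. A further 3 probe sets are listed under both GIMAP5 and the GIMAP1-GIMAP5 readthrough, a transcript that runs through both genes, and they were kept apart because they do not report 1 gene.

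The study asked how Jurkat cells respond to nanosecond electrical pulses (nsEP), and the 9 arrays fall into 3 groups of 3 arrays that the labels call biological replicates. The nsEP group received 100 pulses of 10 ns at 150 kV/cm in an electroporation cuvette. The sham group was placed in the same kind of cuvette and handled alike without pulses. The heat shock group was the study's thermal stress control. RNA was taken 4 h after exposure in each group. All groups are the same leukaemia line, so none holds resting blood T cells. The study reported that much of the pulsed Jurkat population lost viability. Signals of living and dying cells cannot be told apart in these bulk samples, nor can fewer cells making a transcript and less of it per cell.

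GIMAP proteins share a GTP-binding domain related to that of the septins, and several sit on the membranes of organelles such as the endoplasmic reticulum, lysosomes and lipid droplets. Work in rodents ties them to the survival of lymphocytes, and loss of GIMAP5 leaves few T cells in the blood. Some members have been linked to the BCL2 family, which sets the threshold for cell death, and GIMAP6 binds a protein of the ATG8 family, which builds the autophagosome. The genes lie side by side in 1 cluster on chromosome 7.

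The sequences just before the transcription starts are shown because they hold a short stretch that all 7 genes have in common. They are the last 100 bases before each start, from RefSeq, build GRCh38.p14, read 5′ to 3′ on the strand of the gene, and all 7 genes were matched by symbol. Capitals mark AGGAAG or its reverse complement, letters typical of sites for ETS transcription factors, which include several regulators of lymphocyte genes. GIMAP8 (chr7:150450530-150450629, plus strand), GIMAP7 (chr7:150514772-150514871, plus strand), GIMAP4 (chr7:150567290-150567389, plus strand), GIMAP6 (chr7:150632386-150632485, minus strand), GIMAP2 (chr7:150685606-150685705, plus strand), GIMAP1 (chr7:150716513-150716612, plus strand) and GIMAP5 (chr7:150737318-150737417, plus strand) follow in their order along the chromosome.
GIMAP8: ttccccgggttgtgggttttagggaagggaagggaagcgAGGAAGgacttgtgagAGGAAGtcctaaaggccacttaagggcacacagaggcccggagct
GIMAP7: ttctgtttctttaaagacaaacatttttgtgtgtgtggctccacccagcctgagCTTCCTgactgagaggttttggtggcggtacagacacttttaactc
GIMAP4: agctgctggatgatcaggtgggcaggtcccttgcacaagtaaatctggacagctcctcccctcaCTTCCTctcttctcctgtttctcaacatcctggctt
GIMAP6: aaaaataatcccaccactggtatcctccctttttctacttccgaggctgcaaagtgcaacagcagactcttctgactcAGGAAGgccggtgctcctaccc
GIMAP2: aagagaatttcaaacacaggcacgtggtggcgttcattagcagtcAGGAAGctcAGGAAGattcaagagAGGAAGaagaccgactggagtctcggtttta
GIMAP1: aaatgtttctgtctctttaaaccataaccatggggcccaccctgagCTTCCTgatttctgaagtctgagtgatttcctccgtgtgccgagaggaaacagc
GIMAP5: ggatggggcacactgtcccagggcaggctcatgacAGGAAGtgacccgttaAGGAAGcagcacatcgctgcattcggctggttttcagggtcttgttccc

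Searched on both strands, AGGAAG occurred in 7 of the 7 windows, with 11 matches in all. Of 27305 promoters in the same RefSeq table, 13.1% held it within the last 100 bases and 28.7% within the last 250 bases. The window of 100 bases was chosen after the matches in 250 bases had been seen. The 7 windows belong to 1 gene family in 1 cluster, so they are not separate draws. G and C bases made up 39.6% to 49.2% of the GIMAP promoters, against 58.0% for all promoters. The part of base content in these shares was not tested. GIMAP2 had 3 matches, GIMAP8 and GIMAP5 had 2 each, and the other genes had 1. The promoters of GIMAP7 and GIMAP1 also shared the 14-base stretch cctgagcttcctga, which starts 52 bases before the start of GIMAP7 and 60 bases before that of GIMAP1, overlaps their AGGAAG match, and occurs in 3 of the 27305 promoters. Over the 250 bases before the start, a heat shock element of 3 units matched in 0 of the 7 genes and in 0.439% of all promoters. The letters of RUNX sites (TGTGGT) and GATA sites (AGATAA) also matched in 0 of 7, against 10.9% and 9.37% of all promoters. An AP-1 site (TGANTCA) matched only in GIMAP6, where it overlaps the AGGAAG match, against 6.60% of all promoters. E-boxes (CAGCTG or CAGGTG) matched in GIMAP4 and GIMAP5, against 28.5%, and TATAAA matched in GIMAP7, against 11.1%. These matches describe letters in 1 window and say nothing of whether a factor binds there.

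Values are log2 MAS5 signals, and ratios are differences of group means on that scale. The test was limma's moderated test over all 9 arrays, and a probe set was called where its p, adjusted by Benjamini-Hochberg over 54613 probe sets, was under 0.05. T cell identity was checked first: 15 of 16 measured T cell markers lay above the median of all probe sets in sham, against 3 of 7 B cell, 3 of 9 myeloid and 1 of 6 endothelial markers. The heat shock label was checked with 4 chaperone genes, and all 4 rose in heat shock against sham, by log2 8.77 for HSPA6, 5.11 for HSPA1L, 3.14 for DNAJB1 and 1.98 for HSPH1. Replicate 3 of nsEP stood apart, with an array weight of 0.51 where the other 8 arrays had 0.92 to 1.3. On that array the log2 difference between 3′ and 5′ probe sets was 0.56 for GAPDH and 1.24 for ACTB, against at most -0.11 and 0.37 on the other nsEP arrays, while the sham arrays reached 0.26 and 1.26. Its poly-A spike-ins averaged 11.16 against 9.89 and 10.02. Replicate 3 was the lowest nsEP array on GIMAP1 1552315_at, 1552318_at and 236401_at, GIMAP2, GIMAP4, GIMAP6 229367_s_at and GIMAP8 240646_at. It was the highest on GIMAP1 1552316_a_at and 236583_at and on GIMAP5 215353_at. The part of RNA quality in these readings was not tested. Bacterial poly-A spike-ins averaged log2 11.31 in heat shock, 10.28 in sham and 10.36 in nsEP, and the part of this difference in the results was not tested.

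Most GIMAP probe sets were bright in Jurkat cells. Of the 13 probe sets, 11 had a mean over the 9 arrays above the median of all probe sets, which was log2 6.33, and 6 lay in the highest quartile. The dim ones were GIMAP5 215353_at and GIMAP8 240646_at. The signals of the 7 genes, each by its brightest probe set, summed to 9045 to 9751 units in sham, 7239 to 8108 in nsEP and 3693 to 4860 in heat shock. The sums of the 3 groups did not overlap, and heat shock had the lowest. How often sums of other genes do so was not tested. Of single probe sets above the median signal, 7.85% lay below sham on all arrays after nsEP and 17.0% in heat shock. After nsEP 0 of the 13 GIMAP probe sets were called by limma. GIMAP5 entered this sum by its dim 215353_at, not by the brighter shared probe sets. The summed T cell markers ran from 78353 to 86165 in sham, 78719 to 105813 in nsEP and 74187 to 98099 in heat shock, so that sum overlapped between the groups. The marker sum is weighted to the brightest members, CD3D and LCK, with sham means of log2 14.5 and 14.2. Singly, 3 of the 16 markers fell in heat shock and 0 rose, as given below.

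**Figure D1:**
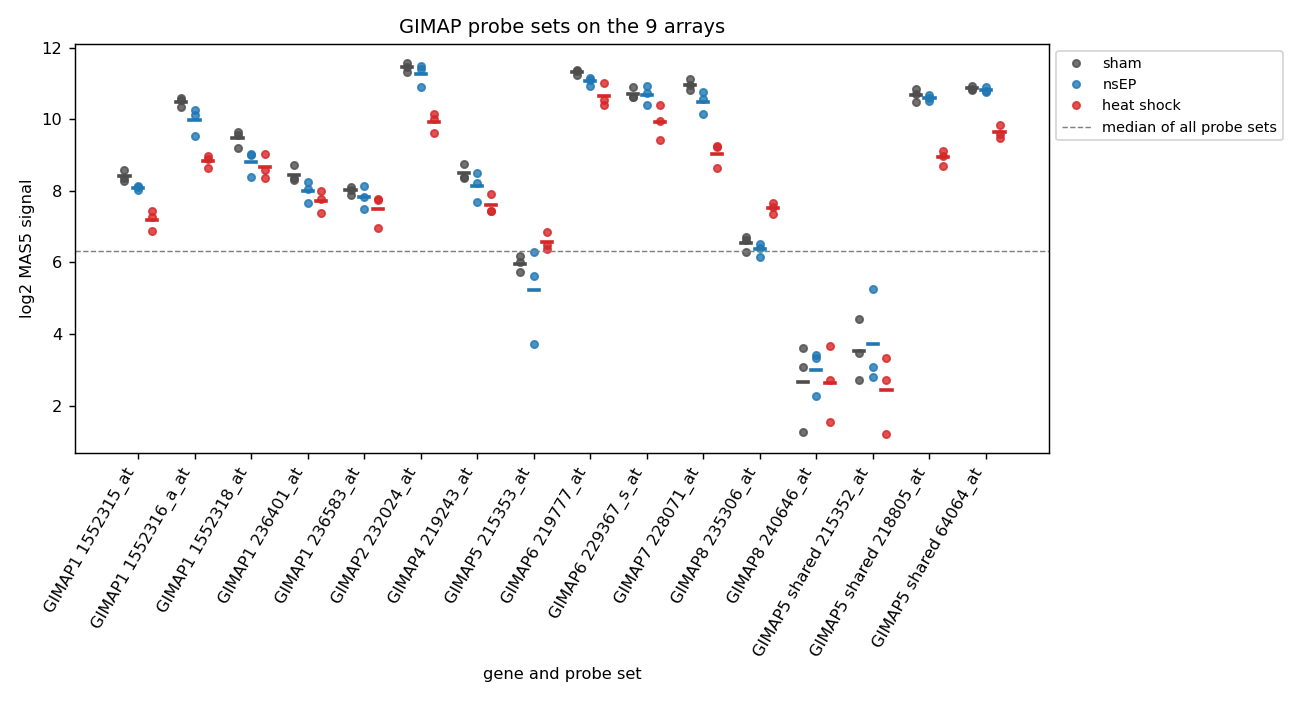
Log2 MAS5 signal (vertical axis) of the 13 GIMAP probe sets and the 3 shared GIMAP5 probe sets (horizontal axis) on each of the 9 arrays, with points for arrays, short bars for group means and a dashed line at the median of all probe sets, log2 6.33. Heat shock lies lowest for GIMAP7, GIMAP2 and GIMAP1 1552316_a_at, and highest for GIMAP8 235306_at.

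In heat shock, GIMAP7, GIMAP2 and GIMAP1 were lower than in sham, with log2 ratios of -1.93, -1.53 and -1.66 at their brightest probe sets. Of the 13 GIMAP probe sets, 4 were called and all 4 were lower, where 2.36% of all probe sets and 4.60% of those above the median signal were called lower. GIMAP1 supplied 2 of these 4, so they are not separate genes. A further 6 lay below sham on all their arrays without passing the test. With the 4 called, 10 of the 13 lay below sham on all arrays. Of all probe sets 9.86% did so, and 17.0% of those above the median signal. GIMAP8 235306_at and GIMAP5 215353_at lay above sham on all arrays, also without passing, as 16.6% of all probe sets lay above sham.

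GIMAP7 is a GTPase that can pair with GIMAP2 and speed its hydrolysis of GTP. On GIMAP7 228071_at the sham arrays read log2 10.82, 11.13 and 10.97, the nsEP arrays 10.78, 10.15 and 10.57, and the heat shock arrays 8.64, 9.22 and 9.25. All 3 heat shock arrays lay below the other 6. The heat shock mean was 26.2% of sham, a log2 ratio of -1.93 (SE 0.21, 95% interval -2.39 to -1.48, limma adjusted p 0.000266).

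GIMAP2 has been found on lipid droplets, the fat stores of the cell. On GIMAP2 232024_at the sham arrays read log2 11.31, 11.47 and 11.59, the nsEP arrays 11.42, 11.48 and 10.91, and the heat shock arrays 10.01, 10.15 and 9.63. Heat shock again lay below the other 6 arrays, while nsEP overlapped sham. The heat shock mean was 34.7% of sham, a log2 ratio of -1.53 (SE 0.19, 95% interval -1.94 to -1.12, limma adjusted p 0.000662).

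GIMAP1 is needed for mature lymphocytes to form in mice. Its brightest probe set, 1552316_a_at, read log2 10.59, 10.53 and 10.36 in sham, 10.13, 9.52 and 10.27 in nsEP, and 8.89, 8.98 and 8.63 in heat shock. The 3 groups did not overlap on this probe set, with nsEP between sham and heat shock. The heat shock mean was 31.6% of sham, a log2 ratio of -1.66 (SE 0.20, limma adjusted p 0.000608). Probe set 1552315_at read log2 8.27, 8.37 and 8.58 in sham, 8.12, 8.13 and 8.01 in nsEP, and 7.28, 7.44 and 6.87 in heat shock, in the same order of groups. Its log2 ratio of heat shock to sham was -1.21 (SE 0.23, limma adjusted p 0.0103), and that call was lost without sham replicate 3, where the adjusted p was 0.0525.

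The other 3 GIMAP1 probe sets did not pass. Their log2 ratios of heat shock to sham were -0.81 for 1552318_at (adjusted p 0.0781), -0.74 for 236401_at (adjusted p 0.132) and -0.53 for 236583_at (adjusted p 0.344). On each, all 3 heat shock arrays lay below all 3 sham arrays. The 5 probe sets of this gene thus gave ratios of 1 sign, from -1.66 to -0.53, and only those below -1 passed. Without nsEP replicate 3, 1552318_at was called too.

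GIMAP5 is the member whose loss depletes T cells in rodents. Its only single-gene probe set, 215353_at, was dim and read log2 5.72, 6.17 and 6.01 in sham, 5.63, 3.73 and 6.30 in nsEP, and 6.49, 6.36 and 6.85 in heat shock. Heat shock lay above sham, and the nsEP arrays spread over more than log2 2. The log2 ratio of heat shock to sham was 0.60 (SE 0.59, limma adjusted p 0.643), and it turned to -0.43 when arrays were scaled on the poly-A spike-ins.

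The brighter probe sets that GIMAP5 shares with the readthrough gave another picture. Probe set 218805_at read log2 10.70, 10.85 and 10.49 in sham, 10.61, 10.52 and 10.68 in nsEP, and 8.70, 9.13 and 8.99 in heat shock. Probe set 64064_at read log2 10.83, 10.86 and 10.94 in sham, 10.76, 10.80 and 10.89 in nsEP, and 9.48, 9.84 and 9.59 in heat shock. On both, the heat shock arrays lay below the other 6, and nsEP overlapped sham. Both were called lower in heat shock, with log2 ratios of -1.74 (SE 0.16, limma adjusted p 8.51e-05) and -1.24 (SE 0.14, limma adjusted p 0.000432). The third, 215352_at, was near the floor of the array and its groups overlapped, with a log2 ratio of -1.12 (SE 0.89, limma adjusted p 0.549). The ratio of the dim 215353_at had the other sign, but its 95% interval ran from -0.69 to 1.89, so its own sign was not settled. Which transcript each probe set reads was not tested.

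GIMAP6 binds an ATG8 protein and takes part in autophagy. Probe set 219777_at read log2 11.38, 11.34 and 11.23 in sham, 10.95, 11.15 and 11.09 in nsEP, and 10.41, 11.03 and 10.56 in heat shock. Sham lay above both other groups, which overlapped each other. Its log2 ratio of heat shock to sham was -0.65 (SE 0.17, limma adjusted p 0.0509), and that of 229367_s_at was -0.79 (SE 0.23, limma adjusted p 0.0793). Without heat shock replicate 2, the highest heat shock array on both probe sets, both were called, and without nsEP replicate 3, which enters the shared estimate of the spread, 219777_at was called.

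GIMAP4 has been tied to the execution of apoptosis in T cells. Probe set 219243_at read log2 8.39, 8.74 and 8.37 in sham, 8.51, 8.21 and 7.69 in nsEP, and 7.45, 7.92 and 7.45 in heat shock. Heat shock lay below sham and overlapped nsEP. The log2 ratio of heat shock to sham was -0.89 (SE 0.26, limma adjusted p 0.0802), and it was called without nsEP replicate 3.

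GIMAP8 differs from the others in carrying several GTPase domains in 1 protein. Probe set 235306_at read log2 6.70, 6.62 and 6.30 in sham, 6.51, 6.16 and 6.42 in nsEP, and 7.36, 7.67 and 7.56 in heat shock. Here the heat shock arrays were the highest of the 9. The log2 ratio of heat shock to sham was 0.99 (SE 0.30, 95% interval 0.33 to 1.65, limma adjusted p 0.0991), and it was -0.0425 after scaling on the poly-A spike-ins. With dim probe sets left out before the fit it was called higher (limma adjusted p 0.0464). The second GIMAP8 probe set, 240646_at, ran from log2 1.26 to 3.66 over the 9 arrays with all groups overlapping.

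The family can also be read against the whole array. In heat shock against sham, all 3 heat shock arrays lay below all 3 sham arrays on 10 of the 13 GIMAP probe sets, where 9.86% of all probe sets and 17.0% of those above the median signal did so. They lay above sham on 2, where 16.6% of all probe sets did. The 10 include all 5 probe sets of GIMAP1 and the 2 of GIMAP6, so they are not separate genes. The median log2 ratio of the 13 was -0.79, against 0.18 over all probe sets and 0.05 over those above the median signal. Scaling on the poly-A spike-ins moved the median of all probe sets to -0.85 and that of the GIMAP probe sets to -1.82, and 9 of the 13 were then called, all lower, where 6.60% of all probe sets were called lower. After quantile normalization the medians were -0.01 and -0.78.

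**Figure D2:**
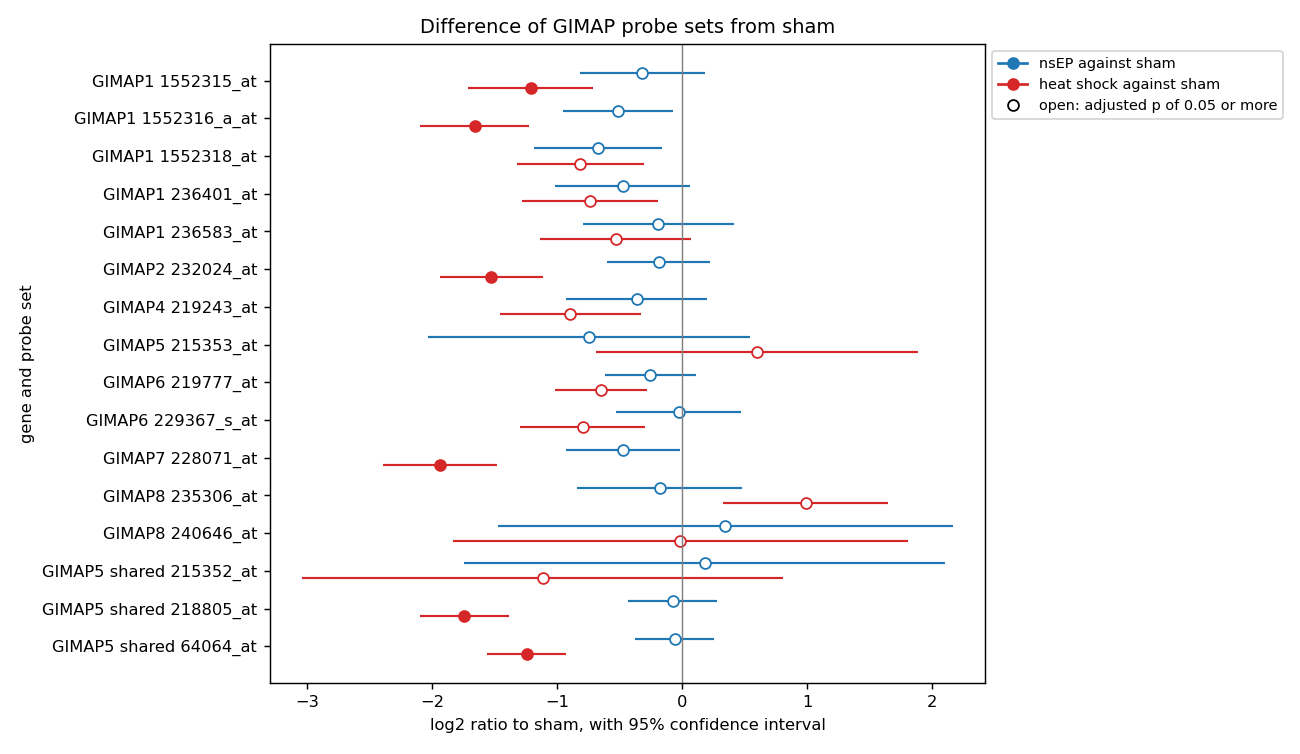
Log2 ratio to sham (horizontal axis) with its 95% confidence interval for each GIMAP probe set (vertical axis), for nsEP and for heat shock, with filled points for an adjusted p under 0.05. In heat shock 4 of the 13 GIMAP probe sets and 2 of the 3 shared ones are filled, all left of 0, and for nsEP none is filled.

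After nsEP, 0 of the 13 GIMAP probe sets were called by limma, where 0.0586% of all probe sets were called. At an unadjusted p under 0.05 there were 3, GIMAP1 1552318_at, GIMAP1 1552316_a_at and GIMAP7 228071_at, where 3821 of the 54613 probe sets reached it. The methods' t-test with Benjamini-Hochberg adjustment called 0 of all 54613 probe sets and so says nothing of the GIMAP genes in particular. The smallest adjusted p of the 13 was 0.567. The log2 ratio of nsEP to sham was negative for 12 of the 13, where 51.5% of all probe sets were negative, and their median was -0.32 against -0.01 over all probe sets. All 3 nsEP arrays lay below all 3 sham arrays on 6 GIMAP probe sets, where 6.51% of all probe sets and 7.85% of those above the median signal did so. Of these 6, GIMAP1 supplied 4, so they are not separate genes.

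Single arrays weighed on the ratios after nsEP. For GIMAP7 the log2 ratio of nsEP to sham was -0.47 (SE 0.21, 95% interval -0.93 to -0.02, limma adjusted p 0.693), and for GIMAP1 1552316_a_at it was -0.52 (SE 0.20, 95% interval -0.95 to -0.08, limma adjusted p 0.627). GIMAP1 1552318_at read log2 9.21, 9.65 and 9.57 in sham and 9.03, 8.99 and 8.39 in nsEP, with no overlap, for a ratio of -0.67 (SE 0.23, limma adjusted p 0.567). For GIMAP2 the ratio was -0.19 (95% interval -0.60 to 0.22), and for the brighter shared GIMAP5 probe sets it was -0.08 (95% interval -0.43 to 0.28) and -0.06 (95% interval -0.37 to 0.25). Intervals were wide for the dim GIMAP5 215353_at, at -2.03 to 0.54, where nsEP replicate 2 read far below its group. Without nsEP replicate 2 the ratio was -0.29 for GIMAP7, -0.29 for GIMAP1 1552316_a_at and -0.0039 for GIMAP5 215353_at. Without nsEP replicate 3 it was -0.0065 for GIMAP2, -0.14 for GIMAP4 and -1.29 for GIMAP5 215353_at.

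Against heat shock, the nsEP arrays were higher for GIMAP7, GIMAP2 and 2 of the 5 GIMAP1 probe sets and lower for GIMAP8 235306_at. This comparison sets the nsEP arrays directly against the heat shock arrays, and the sham arrays enter only the shared estimate of the spread. It is not independent of the comparisons with sham, which use the same nsEP and heat shock arrays. Of the 13 GIMAP probe sets 4 were called higher in nsEP and 1 lower, where 2.31% and 2.65% of all probe sets were. The log2 ratio of nsEP to heat shock was 1.46 for GIMAP7 (SE 0.21, limma adjusted p 0.00163) and 1.34 for GIMAP2 (SE 0.19, limma adjusted p 0.00149). It was 1.14 for GIMAP1 1552316_a_at (SE 0.20, limma adjusted p 0.00599) and 0.89 for GIMAP1 1552315_at (SE 0.23, limma adjusted p 0.044). GIMAP8 235306_at gave -1.17 (SE 0.30, limma adjusted p 0.0474), a call that was lost without any 1 of the 9 arrays and whose ratio was -0.21 after scaling on the poly-A spike-ins. GIMAP1 1552315_at stayed called in 1 of the 9 fits that left out an array, whereas GIMAP7, GIMAP2 and GIMAP1 1552316_a_at stayed called in all 9. GIMAP1 1552316_a_at lost its call without the variance trend (limma adjusted p 0.067). On the other 3 GIMAP1 probe sets nsEP and heat shock overlapped, with log2 ratios of 0.14 for 1552318_at, 0.26 for 236401_at and 0.34 for 236583_at. The shared GIMAP5 probe sets 218805_at and 64064_at gave 1.67 and 1.18 (limma adjusted p 0.000127 and 0.00056).

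The neighbours of the cluster were looked at next. Of 9 measured genes that flank it, 1 fell in heat shock, REPIN1, a zinc finger protein that binds replication origins, at a log2 ratio of -0.90 (SE 0.18, limma adjusted p 0.0153). Of the 3 REPIN1 probe sets 1 was called. Over 19775 genes, each by its brightest probe set, 3.99% fell and 1.72% rose in heat shock. The flanking genes had a median log2 ratio of 0.11 in heat shock against sham, where the 7 GIMAP genes had -0.89 and all genes 0.14. In sham 5 of the 9 flanking genes lay above the median of all probe sets, against 6 of the 7 GIMAP genes. Within the cluster GIMAP8 lies at the end nearest ZNF775 and GIMAP5 at the end nearest TMEM176B. The genes that fell by their brightest single-gene probe sets were GIMAP7, GIMAP2 and GIMAP1. GIMAP5 counts here, and in the median of the 7, by its dim 215353_at. The brighter probe sets that it shares with the readthrough, 218805_at and 64064_at, were called lower, at log2 ratios of -1.74 and -1.24. GIMAP4 and GIMAP6, which lie between GIMAP7 and GIMAP2, did not pass but also had all 3 heat shock arrays below all 3 sham arrays. After nsEP 0 of the 9 flanking genes were called.

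**Figure D3:**
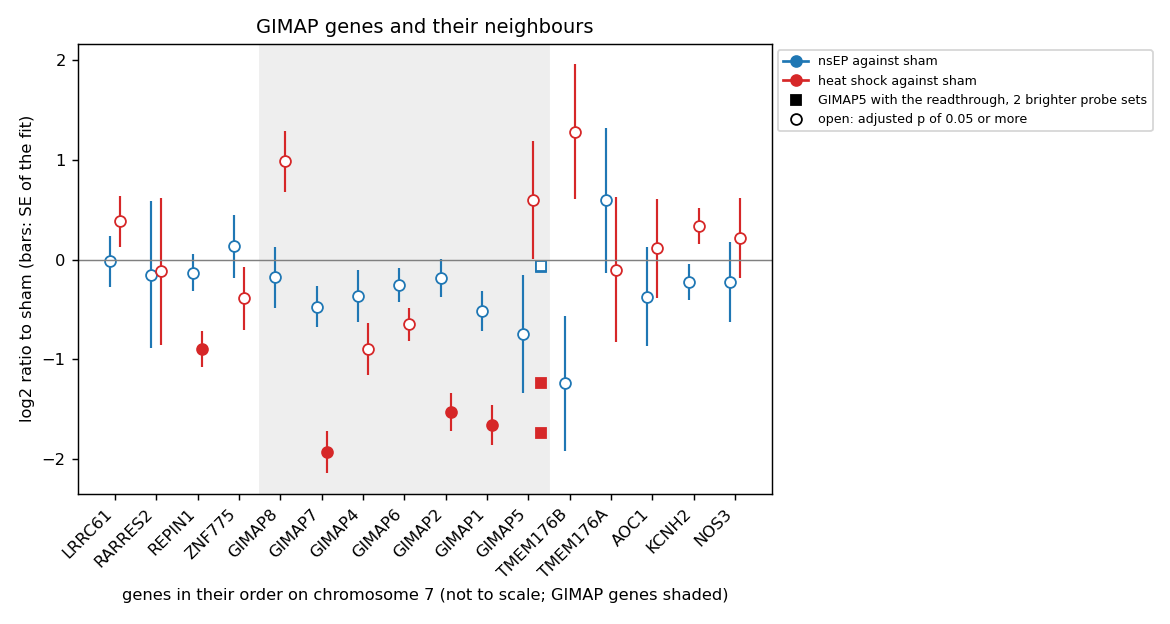
Log2 ratio to sham (vertical axis, bars for the SE of the fit) of the GIMAP genes, shaded, and of their measured neighbours in their order on chromosome 7 (horizontal axis, not to scale), each gene by its brightest probe set and GIMAP5 also by its brighter shared probe sets (squares). Filled symbols had an adjusted p under 0.05 and are GIMAP7, GIMAP2, GIMAP1, REPIN1 and the shared GIMAP5 probe sets, all in heat shock.

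Genes of pathways to which GIMAP proteins have been linked were counted as well. Of 8 BCL2 family partners 1 rose in heat shock, the survival factor MCL1, at a log2 ratio of 0.83 (SE 0.14, limma adjusted p 0.00647), and 0 fell. Over 19775 genes 1.72% rose and 3.99% fell. Of the 6 MCL1 probe sets 2 were called. The log2 ratios of the 8 went both ways, 3 of them negative, with a median of 0.21. These counts read each gene by its brightest probe set, and another probe set was called for BCL2L11 and for BAD. Of 6 ATG8 autophagy proteins 0 were called in heat shock, with a median of 0.35. GABARAP and MAP1LC3B, which coat autophagosomes, gave 0.42 and 0.41 (adjusted p 0.163 and 0.279). After nsEP 0 were called in either group.

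Among T cell markers 3 of 16 fell in heat shock and 0 rose, where 3.99% of 19775 genes fell and 1.72% rose. The 3 markers were TRAT1, which stabilises surface T cell receptors, at a log2 ratio of -2.16 (SE 0.32, limma adjusted p 0.00204), the adhesion receptor CD2 at -1.79 (SE 0.17, limma adjusted p 7.39e-05) and the co-stimulatory receptor CD28 at -1.01 (SE 0.19, limma adjusted p 0.0115). The median of the 16 was -0.09, against -0.89 for the 7 GIMAP genes. Of the markers of other cell types, 0 of 7 B cell and 0 of 6 endothelial genes were called, and 1 of 9 myeloid genes rose, CD14, a receptor for bacterial lipopolysaccharide, from a mean of log2 2.29 in sham to 7.07 in heat shock. Each marker was read by its brightest probe set, and another probe set of the endothelial gene PECAM1 was called. Of the 3 CD28 probe sets 1 was called. The part of the marker genes in the GIMAP result was not tested.

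Genes whose pattern was most like that of the brightest GIMAP probe set, GIMAP6 219777_at, were sought over the 9 arrays. That probe set was not called in heat shock against sham, at a log2 ratio of -0.65, and does not stand for the whole family. Among 22491 candidate probe sets of other genes the highest Pearson r belonged to PSMA2 at 0.978, MMAA at 0.975 (both Spearman 0.95), ARL15 at 0.970, PDLIM5 at 0.968 and TMEM248 at 0.967. The other GIMAP probe sets correlated with it from -0.64 for GIMAP8 235306_at to 0.88 for GIMAP6 229367_s_at. The 9 points share 3 groups, so these values follow the differences between groups and are a description.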

How the data were processed

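Total RNA of Jurkat cells was hybridised to Affymetrix HG-U133 Plus 2.0 arrays, 3 per group. Values are log2 signals that the authors computed with MAS 5.0 and deposited; the trimmed mean of the signals was 500.1 on every array, with no detection calls used here. From these values, 62 control probe sets were set aside and 54613 were fitted with limma 3.58.1 (R 4.3.3; lmFit and eBayes with a variance trend) on all 9 arrays, with 1 mean per group. In the annotation 41091 probe sets had 1 gene symbol, 1801 several and 11721 none. The number of arrays limits the precision. Every GIMAP probe set was described. A gene was represented by its brightest probe set, and other lists by their counts and up to 4 called members with the largest ratios, otherwise up to 2 with the smallest p. The values of 1 called gene of another list are not reported here. The members and lists were chosen with earlier results of these data known. The fit was tested on simulated data. Alternatives covered the variance model, the methods' t-test, samples, weights, pairing, scaling, offset, dim probe sets and left-out arrays. Promoters came from RefSeq (GRCh38.p14). Tables used pandas 2.3.3 and scipy 1.17.1.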

Additional observations from a re-analysis of the deposited data

How the results depend on the processing

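After nsEP 0 of the 13 GIMAP probe sets were called by limma or by the t-test in every setting tried. In heat shock against sham the count was 4, where 4.17% of all probe sets were called. By the methods' t-test with Benjamini-Hochberg adjustment it was 1, where 0.69% of all were called. It became 8 with array weights (6.07% of all), 9 with arrays centred on their medians (8.37%) and 9 with poly-A spike-in scaling (6.89%). With dim probe sets left out it was 9 of the 11 still tested (8 lower and GIMAP8 235306_at higher), where 9.95% of all probe sets tested were called. With 1 array left out it was 3 to 7, where 2.07% to 5.7% of all were called (3 without sham replicate 3, 7 without nsEP replicate 3). In nsEP against heat shock the count was 5, where 4.96% of all were called. Without the variance trend it was 3, where both GIMAP1 probe sets lost their calls and 2.01% of all were called. It was 0 by the t-test (0.227% of all), 3 on the 6 arrays compared alone (3.45%), and 3 to 5 when 1 array was left out (2.46% to 7.36%). With the shared GIMAP5 probe sets counted, an alternative chosen after seeing the data, the counts were 0, 6 and 7. Deviations of same-numbered arrays correlated from -0.16 to 0.21, with a median of -0.0072. Those of differently numbered arrays correlated from -0.26 to 0.24, with a median of 0.0037. The replicate numbers thus gave no clear sign of pairing, which so few arrays cannot exclude. With the replicate block the counts were 0, 6 and 4, where 0.0568%, 4.15% and 4.66% of all probe sets were called. GIMAP7 and GIMAP2 lost their calls in heat shock against sham only by the t-test (adjusted p 0.0664 and 0.0677). Ratios that changed sign were GIMAP6 229367_s_at after nsEP with array weights (0.0285), GIMAP8 240646_at in heat shock with array weights (0.0166), and with poly-A scaling GIMAP5 215353_at (-0.43) and GIMAP8 235306_at (-0.0425) in heat shock. With 1 array left out, the ratio of nsEP to sham ran from -0.35 to 0.82 for GIMAP8 240646_at, -0.60 to 0.64 for the shared 215352_at, -0.15 to 0.12 for GIMAP6 229367_s_at and -0.17 to 0.0099 for the shared 218805_at. That of heat shock to sham ran from -0.71 to 0.54 for GIMAP8 240646_at, and that of nsEP to heat shock from -0.0053 to 0.35 for GIMAP1 1552318_at and -0.19 to 0.87 for GIMAP8 240646_at. The cause was not tested. Over all probe sets, 32 were called after nsEP, against 7 without the trend, 0 by the t-test, 14 on 6 arrays, 52 with array weights, 12 with poly-A scaling, 63 without dim probe sets and 15 to 36 with 1 array left out. In heat shock 2276 were called, against 837, 377 by the t-test, 4571 centred, 3762 with poly-A scaling and 1130 to 3112. In nsEP against heat shock 2707 were called, against 1100, 124, 4792 centred and 1343 to 4018. The share of calls that were higher was 43.4% in heat shock, against 15.6% centred and 4.17% with poly-A scaling. It was 46.6% in nsEP against heat shock, against 79.7% and 92.8%, and 87.5% in nsEP against sham, against 100% with poly-A scaling.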

Other observations

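Other GTPases of immune cells, and DOCK2, which is not itself a GTPase, were measured beside the GIMAP family. Of these 12 genes 3 fell in heat shock against sham and 0 rose, with a median log2 ratio of 0.15. Over 19775 genes 3.99% fell and 1.72% rose. Among those that fell were GBP3 at -1.59 (SE 0.19, limma adjusted p 0.000605) and GBP1 at -1.18 (SE 0.25, limma adjusted p 0.0194), both guanylate-binding proteins induced by interferon. Of the 4 GBP1 probe sets 1 was called. After nsEP 0 of the 12 were called.

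Of 12 genes typical of resting T cells 0 were called in heat shock against sham, with a median log2 ratio of 0.07. IL7R, the receptor of the survival cytokine interleukin 7, gave -0.86 (SE 0.26, limma adjusted p 0.0887), and the homing receptor CCR7 gave -0.93 (SE 0.31, limma adjusted p 0.121). In nsEP against heat shock 1 of the 12 was higher, CCR7, at 1.36 (SE 0.31, limma adjusted p 0.0231), where 3.83% of 19775 genes were higher. Of 14 lymphoid transcription factors and their regulators 1 fell in heat shock, where 3.99% of 19775 genes fell, and the median was -0.26. The 1 that fell was NOTCH3, a receptor that acts on transcription, at -0.94 (SE 0.22, limma adjusted p 0.0311). Of the 2 NOTCH3 probe sets 1 was called. These counts read each gene by its brightest probe set. In heat shock against sham another probe set was called for TAL1, MYB, TCF3, IKZF1 and BCL11B, and for BTG1 among the resting T cell genes.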
